A study of Mus musculus with 6 samples.

Results

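The ATP-binding cassette (ABC) transporter genes were followed in the livers of WT and Vps15LKO mice. Members were chosen by name, as every protein-coding gene whose symbol starts with Abca to Abcg and a digit, which gave 50 of the 56305 genes in the table, of which 48 are described. Of these, 38 passed the filter on low values and were tested. The WT group was 3 male mice that the labels give only as WT. The Vps15LKO group was 3 male mice of genotype AlbCre+;Vps15 f/f, in which Vps15, the regulatory subunit of class 3 PI3K, is deleted by Cre under the albumin promoter. Livers were taken at ZT6 at an age of 5 weeks from mice with free access to food, and each liver gave 1 library of poly(A) RNA. Cre under this promoter acts in hepatocytes and their precursors, and whether other cells of these livers carried the deletion was not measured.

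ABC transporters use ATP to move lipids, bile constituents, drugs, metals and peptides across membranes. In hepatocytes, one set sits on the canalicular membrane and exports bile salts, phospholipid, sterols and conjugated anions into bile, while another on the sinusoidal side returns anions and cholesterol to the blood. Others serve peroxisomes, lysosomes and mitochondria, and the members of subfamilies E and F have no membrane domains. The farnesoid X receptor Nr1h4 is known to drive the bile salt exporter gene, the liver X receptors the sterol exporter genes, and Nrf2 (gene Nfe2l2) several genes of subfamily C.

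Values are normalized counts, the reads of a gene divided by 1 size factor per library, and a log2 fold change compares log2(normalized count + 1) in Vps15LKO with WT livers. The libraries held 16137093 to 18110223 reads on genes, but 1 read counted for 0.707 to 0.810 normalized counts in Vps15LKO and 1.25 to 1.35 in WT livers. Scaling all libraries to the same total of reads therefore lifted the median of the 15430 tested genes by 0.72 on the log2 scale, and upper-quartile scaling lifted it by 0.12. Calls required a limma adjusted p under 0.05 (Benjamini-Hochberg, over all tested genes) and a fold of 1.2 or more, and s.e. is the standard error of the log2 fold change in that fit. The p-values rest on the spread between these 6 samples. The fit draws the variance of each gene toward a trend over level, so an s.e. is not the spread of that gene alone. Pik3r4, which encodes Vps15, measured 507.8, 573.3 and 459.7 in WT and 340.6, 362.2 and 355.1 in mutant livers, a log2 fold change of −0.54 that was 0.19 under total-read scaling. Reads on its floxed exon cannot be separated in a table of whole genes.

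Of all tested genes, 33.0% were called lower and 33.5% higher. Hepatocyte markers were present in all livers, and 7 of 8 were called lower in Vps15LKO liver, all but Alb. The Alb values did not overlap between genotypes, but its log2 fold change of −1.48 had an s.e. of 1.38 in the fit. The summed level of the 8 hepatocyte markers was 2525219 to 2950432 in the WT and 715108 to 1106215 in the Vps15LKO livers, most of it Alb (494360 to 600016 against 94373 to 137280 without it). The cholangiocyte list had 7 of 7 tested markers called higher, with a summed level of 714.5 to 841.2 in WT and 12100 to 23146 in Vps15LKO livers, most of it Spp1 (209.5 to 242.6 against 1698 to 2649 without it). The stellate cell and fibroblast list had 8 of 8 higher (6652 to 7109 against 26241 to 30565), the macrophage list 6 of 8 (6374 to 7237 against 15173 to 20388), the lymphocyte and neutrophil list 5 of 6 tested (72.9 to 93.0 against 299 to 323) and the proliferation list 8 of 8 (557 to 828 against 3575 to 3823). The endothelial list had 4 higher and 4 lower (6525 to 7151 against 5345 to 6947), and 5 higher and 0 lower under total-read scaling (66.7% and 11.1% of all tested genes). Of the markers called higher, 3 of the cholangiocyte, 5 of the lymphocyte and neutrophil and 4 of the proliferation list were under 20 in at least 1 WT liver. Ly6g was the marker at 0 in all WT livers, and none was at 0 in all Vps15LKO livers. In whole liver, fewer cells of a type and less RNA per cell cannot be told apart, and the part of these other cells in the changes of the ABC genes was not tested.

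Of the 38 tested ABC genes, 20 were called lower in the mutants and 12 higher. Among all tested genes, 33.0% were called lower and 33.5% higher. Of the members called higher, Abcc12 reached the filter of 20 in no WT liver and Abcb1b in 2, and 10 were higher where every liver had to reach it. The median log2 fold change was −0.40 for the tested members and −0.02 for all tested genes. With total-read scaling, 9 members were lower and 19 higher (11.1% and 66.7% of all tested genes), with a median of 0.32 against 0.70 for all. With quantile normalization, 17 members were lower and 12 higher (37.6% and 30.4% of all tested genes). The values of both genotypes did not overlap for 21 members lower and 12 higher in Vps15LKO liver, which was so for 36.8% and 36.4% of all tested genes. Abca1, Abca9, Abcb1b, Abcb4, Abce1 and Abcf2 lost their call with quantile normalization, Abcd4 with TMM, and Abca1, Abcd4 and Abcf2 with upper-quartile scaling. In total, 19 members kept their call under TMM, upper-quartile, quantile and total-read scaling. Those lower each time were Abcb11, Abcg8, Abcc6, Abcd3, Abca2, Abcb6, Abcb10, Abca6 and Abca8a. Those higher each time were Abcb1a, Abcc1, Abcc4, Abcc5, Abcg1, Abca5, Abca7, Abcc9, Abcc12 and Abcg3. Abcc12 was tested only because it is high in the Vps15LKO livers, so its call under each scaling adds no support.

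**Figure D1:**
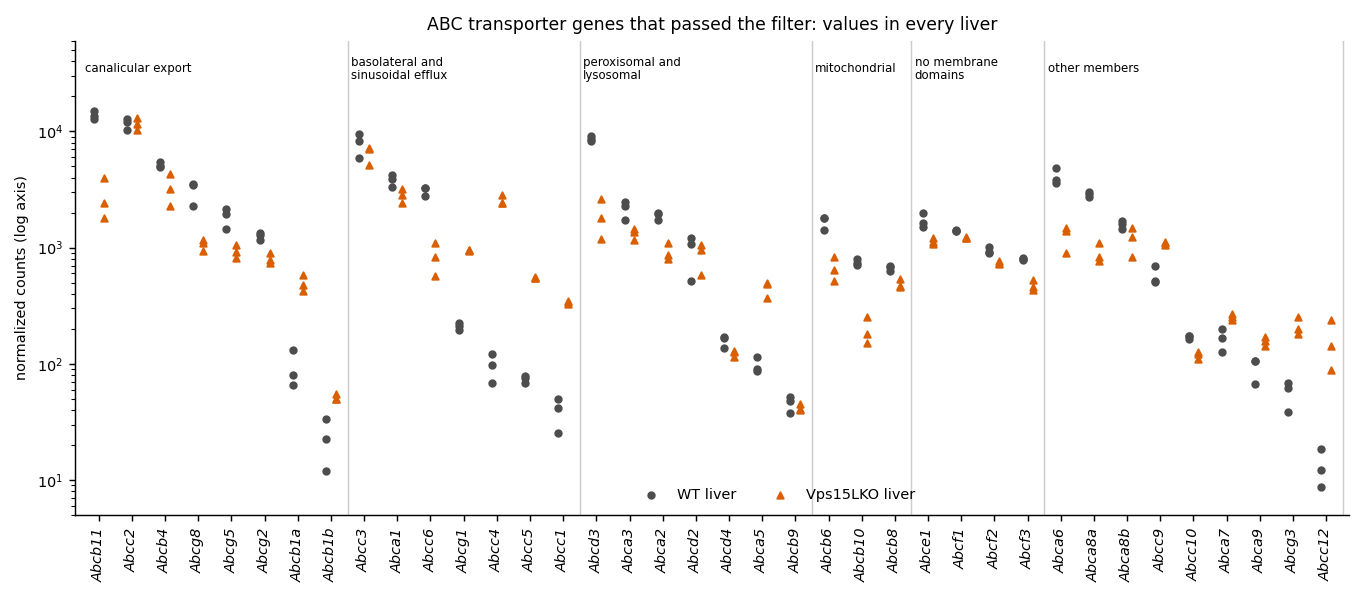
Normalized counts (log axis) of the 38 tested ABC genes in each of the 3 WT livers (circles) and 3 Vps15LKO livers (triangles), ordered by role and level. Abcb11 lies between 12811 and 14816 in the WT and between 1799 and 3963 in the Vps15LKO livers, and Abcc4 between 68.75 and 122.4 and between 2414 and 2813, while the values of Abcc2 overlap.

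The family kept its part of all reads but was reordered within. The summed normalized counts of the 48 genes came to 83470 ± 6521 in WT and 51251 ± 7194 in mutant livers (SD, n = 3 each). As a percent of all reads on genes, which uses no size factor, the sum was 0.352% to 0.399% in WT and 0.338% to 0.393% in Vps15LKO livers, and these ranges overlapped. When levels were divided by exon length and expressed as a share of the 48 genes' sum in the same library, Abcb11 came first in WT livers with 17.77% to 20.52%. Abcc3 (8.14% to 10.98%), Abcc2 (9.40% to 9.97%) and Abcd3 (9.17% to 9.88%) followed, with shares that overlapped one another. In Vps15LKO livers Abcc2 came first with 15.47% to 18.54%, before Abcc3 (13.57% to 15.06%) and Abcb11 (5.23% to 8.72%), and these shares did not overlap. Abcc4 went from rank 31 of 38, with 0.0844% to 0.127% of that sum, to rank 4, with 4.28% to 5.66%. The canalicular genes together held 44.75% to 44.83% of it in WT and 37.58% to 39.23% in Vps15LKO livers.

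The direction of the calls went with the level of the gene. Of the 24 tested members with at least 100 normalized counts per kb of exon (mean of the 6 livers), 18 were called lower and 1, Abcc4, higher, while of the 14 below this level, 2, Abcc10 and Abcd4, were lower and 11 higher. Among all tested genes, 48.6% at or above this level were lower and 22.6% higher, and 22.1% below it were lower and 41.2% higher. Under total-read scaling, 9 members above the level were lower and 6 higher (19.2% and 57.2% of all genes there), and 0 below it were lower and 13 higher (5.41% and 73.5%). Quantile normalization moved this split, in that 14 members above it were lower and 3 higher (41.2% and 29.0% of all genes there), and 3 below it were lower and 9 higher (35.0% and 31.4%).

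**Figure D2:**
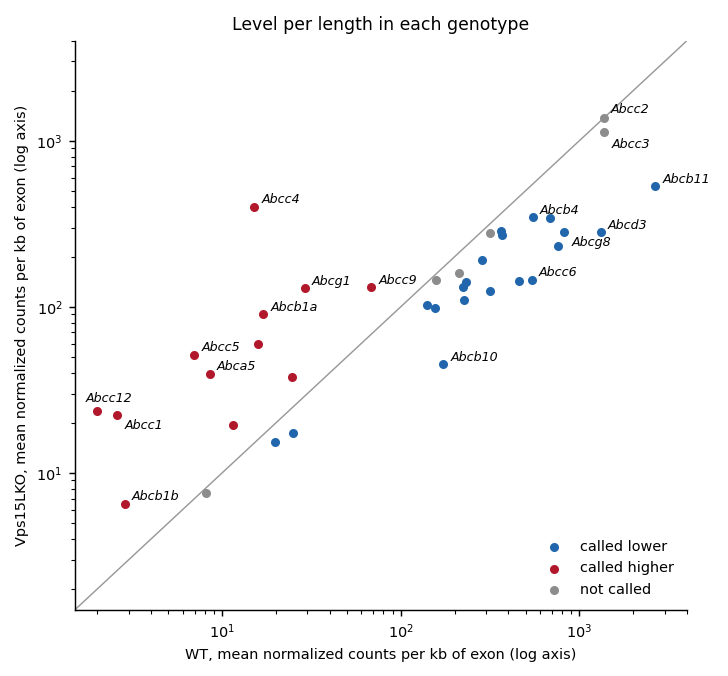
Mean normalized counts per kb of exon of each tested ABC gene in WT (x axis) and Vps15LKO livers (y axis), both on log axes, with the line of equal levels. Under the deposited scaling the genes called higher lie at or below 68.3 per kb in WT liver and most genes called lower lie above 100, but 13 members of low level are called higher and 9 of high level lower under total-read scaling.

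Abcc4 and Abcc2 encode related exporters of conjugated anions that sit on opposite faces of the hepatocyte, Abcc4 (Mrp4) on the sinusoidal and Abcc2 (Mrp2) on the canalicular membrane. The start-site windows of both are shown because these genes stood at the ends of the comparison, among the tested members Abcc4 with the highest fold change and Abcc2, under the deposited scaling only, with the one nearest 0. Each window runs from 250 bases before to 50 bases after a RefSeq start site on GRCm38.p6, 5′ to 3′ on the strand of the gene. Capitals mark the core of an antioxidant response element (TGACNNNGC, the site of Nrf2) or an E-box (CACGTG, the site of Bmal1–Clock) on either strand. Of 2 RefSeq windows of Abcc4, the one at the start of the gene, chr14:118706170-118706469 on the minus strand, is shown and held an E-box and the core on the other strand. The other, 29.3 kb into the gene, also held the core. The Abcc2 window, chr19:43782058-43782357 on the plus strand, held the core.
Abcc4: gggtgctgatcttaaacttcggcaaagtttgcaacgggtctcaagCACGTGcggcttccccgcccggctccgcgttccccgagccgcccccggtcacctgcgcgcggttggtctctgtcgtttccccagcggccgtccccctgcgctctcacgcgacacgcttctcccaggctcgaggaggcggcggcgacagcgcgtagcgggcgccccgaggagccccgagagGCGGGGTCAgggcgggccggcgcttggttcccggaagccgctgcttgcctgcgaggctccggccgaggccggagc
Abcc2: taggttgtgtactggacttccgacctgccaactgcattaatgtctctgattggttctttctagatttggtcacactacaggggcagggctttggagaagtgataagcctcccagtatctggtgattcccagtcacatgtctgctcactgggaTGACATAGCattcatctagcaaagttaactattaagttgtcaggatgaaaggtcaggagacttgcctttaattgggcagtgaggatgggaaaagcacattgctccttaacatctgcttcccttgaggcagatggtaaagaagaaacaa

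A RefSeq window was found for 38 of the 48 members, 45 windows in all. The antioxidant core stood in 7 of these 45 windows, those of Abcc4, Abcc2, Abca8b, Abcc10 and Abcb1a, and in 12.4% of 32851 windows of all genes. The E-box stood in 6 of 45, those of Abcc4, Abca1, Abca8a, Abca8b, Abca15 and Abcf1, and in 7.15% of all windows. The 2 motifs do not overlap in the Abcc4 window, and a match is a run of letters and not a measured site. The Abcb1a window lies 93.0 kb before the start of the gene model used for its coordinates. Of the genes with the core, Abcc4 and Abcb1a were called higher, Abcc10 lower, and Abcc2 and Abca8b were not called. Under total-read scaling all were above 0, at 5.47 for Abcc4, 3.17 for Abcb1a, 0.72 for Abcc2, 0.27 for Abca8b and 0.22 for Abcc10. A part of the core in these values was not tested.

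The canalicular exporters, 8 genes that supply the bile, had 5 members called lower, 2 higher and 1 not called, and 2 lower and 3 higher under total-read scaling. Beside this and the other role groups, 33.0% of all tested genes were lower and 33.5% higher, and 11.1% and 66.7% under total-read scaling. Abcb11, the bile salt export pump, had 12811, 14816 and 13461 normalized counts in WT and 2439, 3963 and 1799 in Vps15LKO livers. Every mutant liver was below every WT liver, and the log2 fold change was −2.40 (s.e. 0.25, limma adjusted p = 5.71e-05). Abcb4, the phosphatidylcholine floppase that protects the duct from bile salts, had 4923, 5049 and 5412 in WT and 3156, 4298 and 2293 in Vps15LKO livers, a log2 fold change of −0.70 (s.e. 0.20, limma adjusted p = 0.0136) that was 0.02 under total-read scaling. Abcc2 had 11923, 12831 and 10223 normalized counts in WT and 13115, 11651 and 10185 in Vps15LKO livers. The groups overlapped, and the log2 fold change was −0.00 (s.e. 0.15, limma adjusted p = 0.99), which became 1.05 with quantile normalization and 0.72 with total-read scaling, both called higher. The median of all tested genes stood at −0.10 with quantile normalization and 0.70 with total-read scaling.

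Abcg5 and Abcg8 encode the partners of the heterodimer that exports cholesterol and plant sterols. Abcg8 had 3421, 3544 and 2259 normalized counts in WT and 1152, 1087 and 937.8 in Vps15LKO livers, a log2 fold change of −1.51 (s.e. 0.17, limma adjusted p = 9.52e-05). Abcg5 had 2149, 1947 and 1442 in WT and 1054, 907.6 and 809.8 in Vps15LKO livers, a log2 fold change of −0.99 (limma adjusted p = 0.000666). Both were lower in every mutant liver, and under total-read scaling Abcg5 was at −0.26 and no longer called. These genes lie on opposite strands of chromosome 17 of GRCm38, Abcg5 from 84658234 to 84683011 on the minus strand and Abcg8 from 84676302 to 84700333 on the plus strand. RefSeq lists 2 start sites for Abcg8, at 84676302 and 84683121, and the latter is 110 bases from the Abcg5 start site. The window of the latter Abcg8 site (chr17:84682871-84683170, plus strand) is shown with the 209 bases that the Abcg5 window also holds in capitals.
Abcg8: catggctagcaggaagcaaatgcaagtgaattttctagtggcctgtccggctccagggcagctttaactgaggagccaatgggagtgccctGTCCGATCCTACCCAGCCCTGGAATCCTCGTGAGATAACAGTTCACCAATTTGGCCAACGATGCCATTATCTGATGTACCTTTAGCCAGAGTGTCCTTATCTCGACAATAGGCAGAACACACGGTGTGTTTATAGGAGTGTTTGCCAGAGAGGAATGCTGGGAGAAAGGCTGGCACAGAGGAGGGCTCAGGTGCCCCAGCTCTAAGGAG

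Abcg2, which exports sulfated conjugates and urate, had 1163, 1282 and 1335 normalized counts in WT and 782, 894.6 and 733.4 in Vps15LKO livers, a log2 fold change of −0.65 (limma adjusted p = 0.000616) that was 0.08 under total-read scaling. The 2 canalicular genes called higher were the mouse P-glycoprotein genes, which encode exporters of bulky drugs. Abcb1a had 79.56, 132.4 and 66.05 normalized counts in WT and 581.9, 475.7 and 422.2 in Vps15LKO livers, a log2 fold change of 2.45 (s.e. 0.25, limma adjusted p = 4.51e-05). Abcb1b had 11.93, 22.48 and 33.7 in WT and 54.98, 50.24 and 50.22 in Vps15LKO livers, a log2 difference of 1.27 (its p is not given, as it passed the filter only with the Vps15LKO livers), which was 0.52 and not called with quantile normalization. Both were higher in every mutant liver, from a level in WT liver far under that of Abcb11. Abcb1a and Abcb1b share 9.03% and 6.04% of their 100-base transcript windows, and the handling of reads that fit both is not stated, so the split between them is uncertain.

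The basolateral and sinusoidal genes, 7 in all, had 4 members called higher, 2 lower and 1 not called. Total-read scaling and quantile normalization each gave 5 higher and 1 lower (66.7% and 11.1% of all tested genes with the former, 30.4% and 37.6% with the latter). Abcc4 had 98.12, 122.4 and 68.75 normalized counts in WT and 2813, 2414 and 2417 in Vps15LKO livers. The lowest mutant liver was far above the highest WT liver, and the log2 fold change was 4.74 (s.e. 0.19, limma adjusted p = 5.84e-07), from 4.52 to 4.93 with each liver left out in turn. The means differed 26.4-fold. Abcc1 (Mrp1), an exporter of glutathione conjugates and leukotrienes that is scarce in healthy hepatocytes, had 25.19, 49.96 and 41.79 in WT and 349.8, 326.6 and 337.4 in Vps15LKO livers, a log2 fold change of 3.14 (s.e. 0.23, limma adjusted p = 9.7e-06). Abcc5 (Mrp5), an exporter of cyclic nucleotides, had 68.95, 78.69 and 75.49 in WT and 559.8, 547 and 544.6 in Vps15LKO livers, a log2 fold change of 2.87 (s.e. 0.11, limma adjusted p = 4.17e-07). For both genes every mutant liver was above every WT liver.

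Abcg1, which passes cholesterol to high-density lipoprotein and is abundant in macrophages, had 196.2, 213.6 and 223.8 normalized counts in WT and 951.5, 931.1 and 944.2 in Vps15LKO livers, a log2 fold change of 2.15 (s.e. 0.09, limma adjusted p = 7.47e-07). Of the 8 macrophage markers, 6 rose beside it, and their part in its level was not tested. Abca1, which loads cholesterol and phospholipid onto apolipoprotein A-I, had 3335, 3900 and 4221 in WT and 3165, 2802 and 2429 in Vps15LKO livers. Its log2 fold change was −0.45 (s.e. 0.13, limma adjusted p = 0.0153), which was 0.12 with quantile normalization and 0.28 with total-read scaling, and without WT replicate 2 it was −0.43 and lost its call (limma adjusted p = 0.0504). Abcc6, a hepatocyte protein needed for the release of ATP, had 3242, 3259 and 2801 in WT and 825.5, 1104 and 563.7 in Vps15LKO livers, a log2 fold change of −1.95 (s.e. 0.21, limma adjusted p = 7.41e-05). Abcc3 (Mrp3), which exports glucuronides and bile salts to the blood, overlapped between genotypes, with 8274, 9443 and 5915 in WT and 7116, 7082 and 5162 in Vps15LKO livers. Its log2 fold change was −0.28 (s.e. 0.20, limma adjusted p = 0.251), 0.62 with quantile normalization and 0.45 with total-read scaling, both called higher. It was −0.47 and called lower without WT replicate 3 (limma adjusted p = 0.0453), but −0.13 without WT replicate 2 and −0.12 without Vps15LKO replicate 3.

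**Figure D3:**
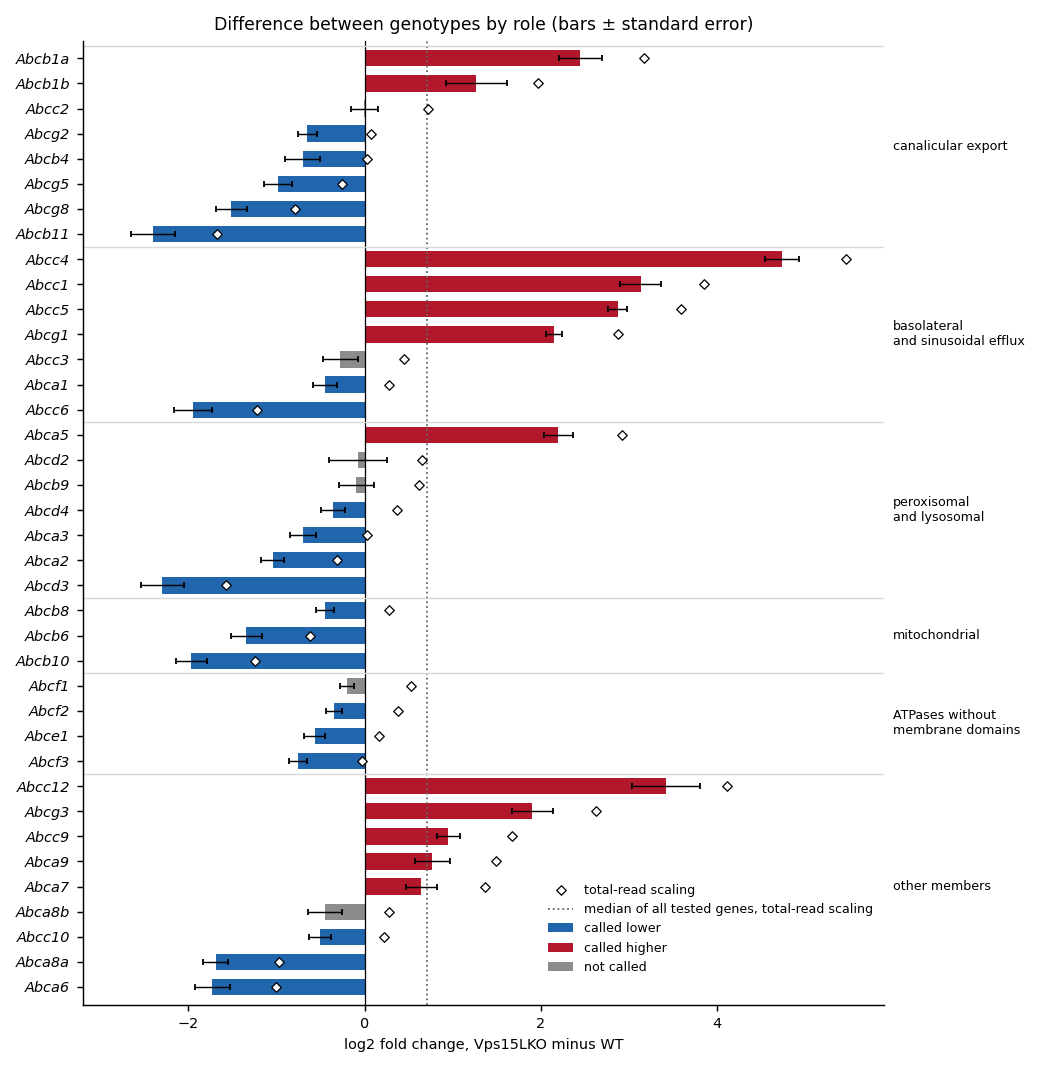
Log2 fold change (bars, Vps15LKO minus WT, ± standard error from limma) of the tested ABC genes by role, with the value under total-read scaling as diamonds and the median of all tested genes under that scaling as a dotted line. Abcc4 stands at 4.74 and Abcb11 at −2.40, and 15 members whose bars lie below 0 have diamonds above it.

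Among the 7 peroxisomal and lysosomal genes described, 4 were called lower and 1 higher, which became 2 and 3 under total-read scaling. Abcd3, the peroxisomal half-transporter of branched-chain and bile acid intermediates, had 8624, 9130 and 8300 normalized counts in WT and 1794, 2592 and 1175 in Vps15LKO livers, a log2 fold change of −2.30 (s.e. 0.25, limma adjusted p = 6.24e-05). Abcd2, a peroxisomal transporter of very-long-chain fatty acids, overlapped between genotypes (520.3 to 1213 in WT, 579.3 to 1058 in Vps15LKO livers), with a log2 fold change of −0.08 (s.e. 0.33) that was 0.05 with upper-quartile scaling, 0.11 with quantile normalization and 0.65 with total-read scaling. Abcd4, which serves lysosomal cobalamin export, had 136.1 to 171 in WT and 114.6 to 128 in Vps15LKO livers, a log2 fold change of −0.36 (limma adjusted p = 0.0468) that was 0.37 and called higher with total-read scaling. Abcd4 also lost its call without some single livers. Abcd4 lay between −0.39 and −0.29 without any liver but WT replicate 3, with adjusted p from 0.0739 to 0.129 (limma).

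Of the lysosomal members of subfamily A, Abca2 had 1713, 1930 and 1991 normalized counts in WT and 863.7, 1086 and 799.2 in Vps15LKO livers, a log2 fold change of −1.04 (limma adjusted p = 0.000133). Abca3, the phospholipid transporter of lung surfactant bodies, had 2294, 2462 and 1736 in WT and 1357, 1445 and 1170 in Vps15LKO livers, a log2 fold change of −0.70 (limma adjusted p = 0.00264) that was 0.03 under total-read scaling. The groups did not overlap for either gene. Abca5 went the other way, with 90.16, 113.7 and 87.62 in WT and 488.7, 369.5 and 495.8 in Vps15LKO livers, a log2 fold change of 2.20 (s.e. 0.16, limma adjusted p = 8.85e-06). Abcb9, a lysosomal peptide transporter, overlapped at 37.74 to 51.71 in WT and 40.47 to 45.38 in Vps15LKO livers, with a log2 fold change of −0.10 (limma adjusted p = 0.683) that was 0.02 with upper-quartile scaling, 0.61 and called higher with total-read scaling, and −0.76 and called lower with quantile normalization. It lay between −0.23 and −0.00 with single livers left out.

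The 3 mitochondrial genes described were all called lower, and 2 were lower and 1 higher under total-read scaling. Abcb10, an inner membrane protein of haem synthesis, had 795.6, 732 and 710.4 normalized counts in WT and 149.7, 252 and 180.4 in Vps15LKO livers, a log2 fold change of −1.97 (s.e. 0.18, limma adjusted p = 2.49e-05). Abcb6, linked to porphyrin transport, had 1787, 1806 and 1414 in WT and 641.5, 837.1 and 517.7 in Vps15LKO livers, a log2 fold change of −1.34 (limma adjusted p = 0.000197). It shares 55.2% of its exon bases with Gm29253 on the same strand, so part of its reads may have been assigned otherwise. Abcb8 had 625.8 to 688.8 in WT and 454.1 to 540.5 in Vps15LKO livers, a log2 fold change of −0.45 (limma adjusted p = 0.00394), and 0.28, called higher, under total-read scaling.

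Of the 4 ATPases without membrane domains, 3 were called lower and 1 was not called, and with total-read scaling none was called lower and 2 were called higher. Abce1, which splits ribosomes after termination, had 1501, 1615 and 1988 normalized counts in WT and 1079, 1219 and 1127 in Vps15LKO livers, a log2 fold change of −0.57 (limma adjusted p = 0.00278) that was 0.16 under total-read scaling. Abcf3 had 811.5, 774.4 and 792.6 in WT and 433, 521.9 and 456.2 in Vps15LKO livers, a log2 fold change of −0.76 (limma adjusted p = 0.000179), and it was at −0.03 under total-read scaling. Abcf2 had 900.5 to 1001 in WT and 715.5 to 761.7 in Vps15LKO livers, a log2 fold change of −0.35 (limma adjusted p = 0.00674), which was 0.38 and called higher with total-read scaling. Abcf1, a factor in translation initiation, had 1386, 1398 and 1405 in WT and 1200, 1217 and 1236 in Vps15LKO livers. The groups did not overlap, but a log2 fold change of −0.20 (limma adjusted p = 0.04997) is under a fold of 1.2, so it was not called, and its value was 0.10 with quantile normalization and 0.53 with total-read scaling.

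Among the 19 other members, 9 were tested, of which 3 were called lower and 5 higher, and 2 and 5 under total-read scaling. Abcc12 had 18.56, 8.744 and 12.13 normalized counts in WT and 142, 239.9 and 89.12 in Vps15LKO livers, a log2 difference of 3.43. Every WT liver was under 20, so Abcc12 was tested only because it is high in the mutants, and its p is not given. Abcg3, a rodent-specific member, had 38.45, 62.45 and 68.75 in WT and 198.5, 254.4 and 179.6 in Vps15LKO livers, a log2 fold change of 1.91 (s.e. 0.24, limma adjusted p = 0.000146). Abcc9, the sulfonylurea receptor of vascular potassium channels, had 518.4, 692 and 504.2 in WT and 1121, 1062 and 1101 in Vps15LKO livers, a log2 fold change of 0.95 (limma adjusted p = 0.000224). Abca7, which acts in phagocytosis, had 168.4, 201.1 and 125.4 in WT and 252.8, 238.2 and 270.9 in Vps15LKO livers, a log2 fold change of 0.64 (limma adjusted p = 0.00993). All 4 genes were higher in each mutant liver than in any WT liver. Abcc10 was lower, with 162.4 to 175.2 in WT and 110.3 to 126.8 in Vps15LKO livers, a log2 fold change of −0.51 (limma adjusted p = 0.00564) that was 0.22 under total-read scaling.

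The 10 untested members held few reads. Abca12, Abca15 and Abcb5 had 0 reads in all 6 livers, a count of 0 that allows up to 3 reads in a library. Abca13, Abca16 and Abca17 had 0 reads in the WT livers and at most 2 in a Vps15LKO liver, and Abca4, Abca14 and Abcg4 had at most 10 in any liver. Abcc8, the sulfonylurea receptor of the pancreatic beta cell, was at 0 in all WT livers and had 14, 13 and 13 reads in the Vps15LKO livers. Set against a floor of 3 reads per WT library, its mean was at least 2.58-fold higher, without a test.

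Neighbouring members on the same strand differed in direction. On chromosome 11, Abca8b, Abca8a, Abca9, Abca6 and Abca5 lie in this order on the minus strand over 405.5 kb, from 109932190 to 110337716. Abca6 had 3805, 4835 and 3595 normalized counts in WT and 1376, 1477 and 894 in Vps15LKO livers, a log2 fold change of −1.73 (limma adjusted p = 9e-05). Abca8a had 2900, 2974 and 2739 in WT and 830.1, 1101 and 763.1 in Vps15LKO livers, a log2 fold change of −1.69 (limma adjusted p = 1.46e-05). Between these 2 falling genes, 4770 bases from Abca8a and 8623 bases from Abca6, Abca9 had 67.62, 104.9 and 106.5 in WT and 169.5, 156.4 and 143.6 in Vps15LKO livers. Its log2 fold change was 0.77 (limma adjusted p = 0.00728), and 0.37 and not called with quantile normalization. Abca8b overlapped, with 1444 to 1690 in WT and 829.6 to 1478 in Vps15LKO livers, and had a log2 fold change of −0.45 (limma adjusted p = 0.0639) that was 0.27 under total-read scaling and −0.15 with quantile normalization. It was −0.64 and called lower without Vps15LKO replicate 2 (limma adjusted p = 0.0102), but −0.22 and not called without Vps15LKO replicate 3. Abca5, at the right end, rose. On chromosome 5, Abcb1a, Abcb1b and Abcb4 follow one another on the plus strand over 299.2 kb, with log2 fold changes of 2.45, 1.27 and −0.70, the last 0.02 under total-read scaling.

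**Figure D4:**
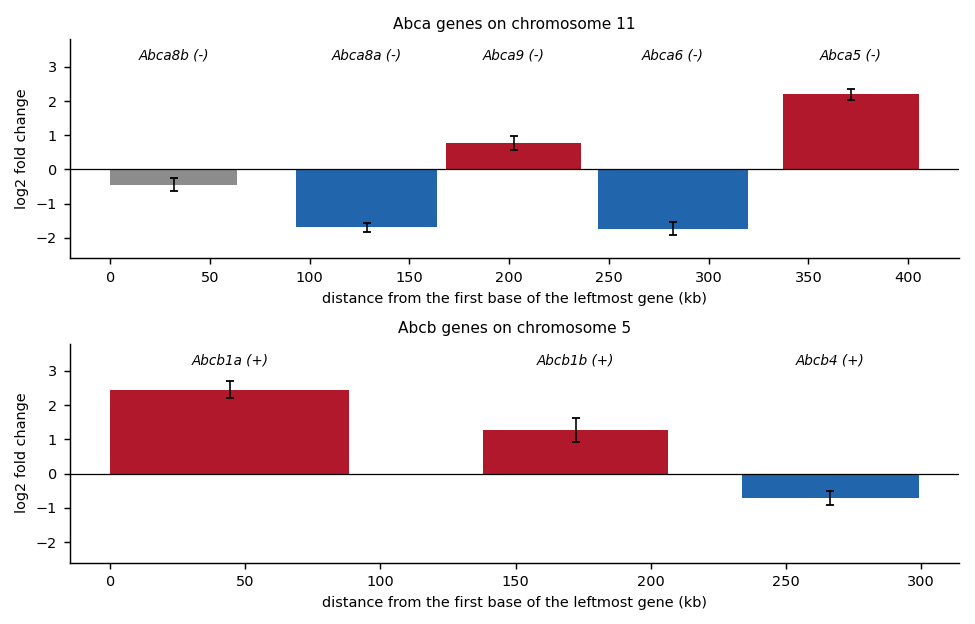
Log2 fold change (bar height, ± standard error from limma) of the neighbouring Abca genes on chromosome 11 and Abcb genes on chromosome 5, each bar as wide as its gene on a scale in kb from the leftmost gene, red where called higher, blue where called lower and grey where not called. Abca9 at 0.77 lies between Abca8a at −1.69 and Abca6 at −1.73, and Abcb4 at −0.70 (0.02 under total-read scaling) follows Abcb1b at 1.27.

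For 7 pairs of members, log2 ratios of (normalized count + 1) within each library, not corrected for length, were compared with an exact two-sided permutation test, which with 3 livers against 3 cannot give a p below 0.1. The genotypes did not overlap for 6 of the 7 pairs, each at the smallest exact p of 0.1 (adjusted p = 0.117 over the 7 pairs). The ratio Abcc2 over Abcc4 went from 6.94 ± 0.25 in WT to 2.19 ± 0.10 in Vps15LKO livers (SD), so the means stood at 121 to 1 and 4.57 to 1. Abca1 over Abcg1 went from 4.17 ± 0.08 to 1.56 ± 0.19 and Abcb11 over Abcb4 from 1.42 ± 0.12 to −0.28 ± 0.14. The bile salt exporter thus went from above the phospholipid exporter in read number to below it in all 3 mutant livers. Per kb of exon, Abcb11 stayed above Abcb4 in the mean of the Vps15LKO livers (531.2 and 346.3 normalized counts per kb, against 2661 and 546.5 in WT). Abcg5 over Abcg8 went from −0.73 ± 0.12 to −0.20 ± 0.07, Abcb1a over Abcb1b from 2.03 ± 0.94 to 3.21 ± 0.17 and Abcf1 over Abce1 from −0.27 ± 0.20 to 0.10 ± 0.08. The difference in Abcb1a over Abcb1b, 1.18, was 0.64 without WT replicate 3. Abcc2 over Abcc3 overlapped, at 0.59 ± 0.18 and 0.86 ± 0.13 (exact p = 0.2).

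**Figure D5:**
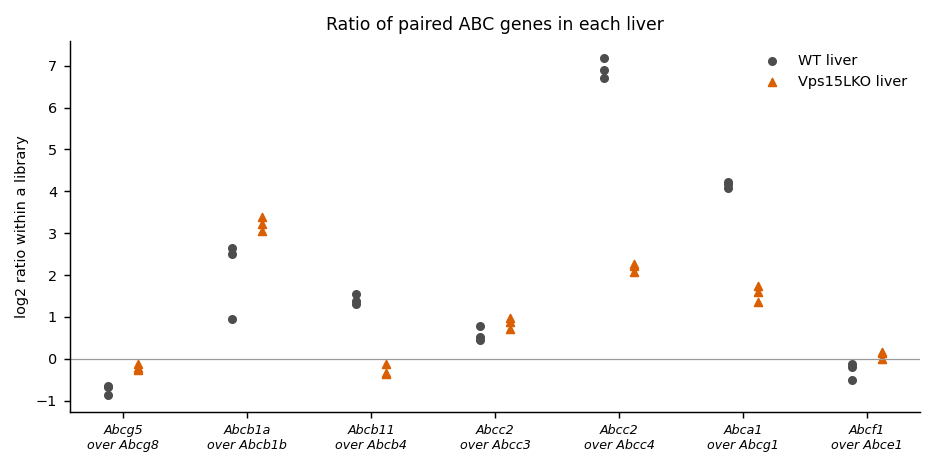
Log2 ratio of the normalized counts of 2 ABC genes within each liver, for 3 WT (circles) and 3 Vps15LKO livers (triangles). Abcc2 over Abcc4 lies between 6.70 and 7.196 in the WT and between 2.07 and 2.27 in the Vps15LKO livers, and the Abcc2 over Abcc3 values overlap.

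A list of 41 regulators, partners and related transporters had 26 genes called lower and 9 higher, and 18 and 17 under total-read scaling. Among all tested genes, 33.0% were lower and 33.5% higher, and 11.1% and 66.7% under total-read scaling. These shares also stand beside the counts of the shorter lists that follow. Where every liver had to reach 20, the counts were 25 and 7. Of 13 nuclear receptors and factors that act on ABC genes, 9 were lower and 1 higher, which became 6 and 4 under total-read scaling. Nr1h4, the bile acid sensor that drives Abcb11, had 2798, 2622 and 2778 normalized counts in WT and 900.3, 1109 and 766 in Vps15LKO livers, a log2 fold change of −1.58 (limma adjusted p = 1.83e-05), and its target Nr0b2 was at −2.22. Rxra, the partner of these receptors, was at −1.42, Ppara at −1.99 and Hnf4a at −1.38, while Nr1h3 (liver X receptor alpha) was at −0.75 and Nr1i2 at −0.71. With quantile normalization Rxra was at −0.55, Ppara at −1.76 and Hnf4a at −0.33, each still called lower. Under total-read scaling Nr1h3 was at −0.02 and Nr1i2 at 0.01, neither called. The gene called higher was Nfe2l2, which encodes Nrf2, with 1537, 1312 and 1469 in WT and 2244, 2328 and 2112 in Vps15LKO livers and a log2 value of 0.63 above WT (limma adjusted p = 0.000428).

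Of 10 other transporters of bile salts and anions, most of them importers, 9 were called lower and Slc51b higher, and with total-read scaling 7 were lower and 2, Slc51b and Atp7b, higher. Their median log2 fold change was −2.22, beside −0.68 for the 8 canalicular genes (−1.50 and 0.05 with total-read scaling), a difference that was not tested. Slc10a1, the sodium-dependent bile salt importer, had 24750, 22754 and 20492 normalized counts in WT and 2251, 3557 and 1695 in Vps15LKO livers, a log2 fold change of −3.24 (s.e. 0.24, limma adjusted p = 1.02e-05). Slco1a1, an anion importer, went from 9900, 10711 and 10760 to 9.164, 62.4 and 10.61, a log2 difference of −9.06. Only 1 of its Vps15LKO livers reached 20, so it passed the filter through the WT livers and its p is not given. Slc51b, a subunit of the sinusoidal bile salt exporter, had 18.56, 7.495 and 29.66 in WT and 60.33, 51.05 and 77.8 in Vps15LKO livers (log2 difference 1.88). It passed the filter through the Vps15LKO livers, since only 1 WT liver reached 20. Its partner Slc51a was at −0.48, and 0.24 under total-read scaling.

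Of the 14 partners and canalicular anchors, the deposited scaling gave 8 called lower and 3 called higher. Total-read scaling gave 5 and 7, and quantile normalization 4 and 4 (37.6% and 30.4% of all tested genes with the latter). The membrane-cytoskeleton linkers parted: Rdx (radixin), the linker of the canalicular membrane, was lower (4982 ± 757 in WT, 2357 ± 276 in Vps15LKO livers, log2 fold change −1.07), while Ezr (148 ± 27.1 and 633 ± 99.98, 2.10) and Msn (731 ± 89.4 and 3179 ± 222, 2.12) were higher (SD, n = 3 each). The cholangiocyte and stromal markers were higher in the same livers, and their part in Ezr and Msn was not tested. Apoa1, the acceptor of Abca1, was called lower at −1.35 (s.e. 0.37), with 207651 to 239886 in WT and 77290 to 99272 in Vps15LKO livers. With quantile normalization Apoa1 was at −0.45 and not called. It lost its call without WT replicate 1 (−1.29, limma adjusted p = 0.0532) and without Vps15LKO replicate 1 (−1.35, limma adjusted p = 0.0946). With each liver left out in turn, its log2 fold change stayed between −1.44 and −1.255. Pex19, the import receptor of peroxisomal membrane proteins such as Abcd3, was at −0.58 and at 0.15 under total-read scaling.

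The ABC genes that carry other symbols, with the tapasin gene Tapbp, were all called higher. Tap1 and Tap2, which form the antigen peptide transporter, had log2 fold changes of 0.59 and 0.47. Cftr, the chloride channel of bile duct cells and a member of subfamily C, had 5.304, 1.249 and 2.696 normalized counts in WT and 174.9, 157.2 and 244.7 in Vps15LKO livers, a log2 difference of 5.66. It passed the filter only through the Vps15LKO livers, so its p is not given. Its WT values rest on 1 to 4 reads, and the cholangiocyte markers rose beside it, with a part that was not tested.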

How the data were processed

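Livers of 3 WT and 3 Vps15LKO mice were compared, with groups taken from the sample labels. The authors filtered reads with SOAPnuke, aligned them (HISAT2, GRCm38), summed them by gene (featureCounts) and divided by DESeq2 size factors, so the deposited values are a signal, reads per size factor. Tool versions and the strand and multi-mapping settings are not given in the sources used here. In each library, 100% of values were whole multiples of 1 read (tolerance 0.01), so whole reads were recovered. Symbols, positions and exon lengths came from GENCODE M21 (55227 genes matched), and start-site sequences from RefSeq (GRCm38.p6).

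Genes reaching 20 normalized counts in 3 or more livers were tested with limma 3.58.1 (lmFit, eBayes with trend, R 4.3.3) on log2(normalized count + 1). This scale understates changes of low genes. The fit was tested on simulated data. Alternatives were pseudocounts of 0.1 and 10, other filters, scalings and thresholds, limma without trend or with voom, edgeR 4.0.16 and DESeq2 1.42.0 on recovered reads, livers left out in turn and a replicate block. Counting error is part of the spread between mice. The members and lists were chosen with earlier results of these data known. Any member may be named, grouped by role, as may the listed regulators and partners, except that 2 members and 1 pair of members are not reported here and were left out of the counts and sums over members. Abcb11, Abcb10, Abcb1a, Abcb1b, Abca3, Abca8b, Abcb9, Abcc9, Abcc10, Abcg5 and Abcg8 share exon bases with genes on the other strand, which were not separated here. Figures were drawn with matplotlib 3.10.9.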

Additional observations from a re-analysis of the deposited data

How the results depend on the processing

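Total-read scaling changed most. It gave 9 members lower and 19 higher, 1712 genes lower and 10299 higher among all tested, and 17 regulators and partners higher. It turned the log2 fold changes of Abca1 (0.28), Abca3 (0.028), Abca8b (0.27), Abcb4 (0.022), Abcb8 (0.28), Abcb9 (0.61), Abcc2 (0.72), Abcc3 (0.45), Abcc10 (0.22), Abcd2 (0.65), Abcd4 (0.37), Abce1 (0.16), Abcf1 (0.53), Abcf2 (0.38), Abcg2 (0.075), Pik3r4 (0.19), Nr1i2 (0.013), Slc51a (0.24), Pex19 (0.15), Atp8b1 (0.39), Nr1h2 (0.57), Ahr (0.68), Pdzk1 (0.26) and Atp7b (0.31) positive. Quantile normalization turned Abca1 (0.12), Abcc2 (1.05), Abcc3 (0.62), Abcd2 (0.11), Abcf1 (0.10), Nr1h2 (0.14), Ahr (0.14) and Vps33b (−0.27), upper-quartile scaling turned Abcb9 (0.023), Abcc2 (0.12), Abcd2 (0.045) and Ahr (0.079), TMM turned Ahr (0.001), and TMM (0.043) and limma voom (0.0003) turned Abcc2. With each liver left out in turn, Abcc2 ran from −0.094 to 0.091 and Abcd2 from −0.46 to 0.18, and 30 of the 32 called members kept their call. A fold of at least 1.5 left 14 members lower and 12 higher. On the recovered reads, edgeR gave 20 lower and 12 higher, DESeq2 19 and 12 and limma voom 20 and 12. The cause of each turn was not tested beyond the shift that total-read scaling gives all genes. Depth limits the 10 untested members.

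Replicate numbers are shared between genotypes by label. Same-numbered livers did not deviate together (correlations of −0.01, −0.011 and 0.049). The labels do not state a pairing, and these correlations cannot exclude a shared litter or day of small effect. With a replicate block, 20 members were lower and 12 higher, 26 regulators and partners lower and 9 higher, and 4983 genes lower and 5065 higher among all tested. The block took the call from Abcd4 (limma adjusted p = 0.0567) and gave one to Abca8b (0.0342).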
